A study of Mus musculus with 16 samples.

Results

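The genes described here are 10 regulators of fat cell formation: the transcription factors *Pparg*, *Cebpa*, *Cebpb*, *Cebpd*, *Klf15*, *Rxra*, *Ebf1*, *Ebf2* and *Klf4* and the transcriptional coactivator *Ppargc1a*. They were chosen by name for their known roles, with earlier results of these data known, and all 10 are among the 19373 genes of the table. RNA came from gonadal white adipose tissue (gWAT) of 16 male mice on a C57BL/6J background, with 1 library per mouse, and was quantified as FPKM, fragments scaled to exon length and to the fragments mapped in the library. Each of 4 groups held 4 mice: Mboat7 flox/flox (control) on chow, Mboat7 flox/flox on a high-fat diet (HFD), Mboat7 ASKO on chow, and Mboat7 ASKO on HFD, each diet fed for 20 weeks. All 16 mice carried the floxed *Mboat7* alleles. Mboat7 ASKO mice also carried a Cre recombinase driven by the adiponectin promoter, so that adipocytes lose *Mboat7* while the other cells of the tissue keep it, and the control mice had no Cre that would show an effect of the recombinase itself. The ages of the mice at the start of the diet were not used here. Mice are numbered 0 to 3 within each group, and values for each mouse are given in that order.

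The table gives FPKM and no read counts. For each mouse a step was sought whose multiples best matched the low FPKM of 1473 single-transcript coding genes, within a preset range. The best step was 2.45 to 4.4 FPKM on a transcript of 1 kb. At that step 50.2% to 80.3% of these values were within 0.2 of a whole multiple. An even spread would give 40% at a step fixed beforehand and more at a step chosen for its fit. The lower shares are therefore weak support for the step. Read as 1 fragment, that step corresponds to about 227000 to 408000 fragments per mouse on the scale of the table. By this rough estimate a regulator at a few FPKM rests on few fragments. Summed over all genes, a mouse had 606370 to 982004 FPKM. A value of exactly 0 can also be a failed estimate: of 3568 genes with a median of at least 10 FPKM, 589 (16.5%) were listed at 0 in at least 1 mouse. The ribosomal protein gene *Rpl13*, chosen after its values were seen, was listed at 0 in 10 of 16 mice.

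Fat cells form when a cascade of transcription factors turns a progenitor into an adipocyte. The early factors C/EBPβ and C/EBPδ, helped by KLF4, switch on PPARγ and C/EBPα, which then sustain each other and the genes of lipid storage. PPARγ binds DNA together with RXRα, EBF1 and EBF2 act early and in mature fat cells, KLF15 tunes metabolic genes of the differentiated cell, and PGC-1α, encoded by *Ppargc1a*, adds mitochondrial gene programs that are most prominent in brown fat.

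The tissue label was checked against marker genes. White adipocyte markers were abundant, led by the fatty acid carrier *Fabp4* with a mean of 8054 FPKM, and the hormone gene *Adipoq* had a mean of 828 FPKM. Of 10 markers of the epididymis or testis, which lie beside this fat pad, only *Adam7* was listed at all, at 0.736 FPKM in control HFD mouse 3 and at 0 in the other 15 mice. Of 10 brown or beige adipocyte markers, 3 could be tested, *Ucp1*, *Dio2*, *Cox7a1* and *Tmem26* were listed at 0 in at least 12 mice, and the most abundant was *Cox8b* with a mean of 12.6 FPKM. The deleted gene itself, *Mboat7*, which encodes a lysophospholipid acyltransferase, stood at 2.42, 4.33, 0.902 and 4.99 FPKM in control chow mice and at 0, 1.39, 0 and 2.89 FPKM in Mboat7 ASKO chow mice. On HFD it stood at 0, 0, 2.15 and 1.61 FPKM in control mice and at 1.14, 0, 2.6 and 0 FPKM in Mboat7 ASKO mice. The genotypes overlapped on both diets, and exact permutation tests (two-sided, 70 assignments, smallest possible p 0.0286) gave p = 0.143 on chow and p = 1 on HFD. Exons of *Mboat7* share 277 bases with *Tsen34* on the opposite strand, and the table gives both genes the same locus.

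The regulators spanned a wide range of levels. By mean FPKM over the 16 mice the order was *Cebpa* (67.3), *Cebpd* (45.4), *Pparg* (28.1), *Cebpb* (19.1), *Klf4* (8.22), *Ebf1* (7.15), *Rxra* (5.55), *Klf15* (3.12), *Ebf2* (2.44) and *Ppargc1a* (0.241). The order differed between groups: *Cebpb* had a mean of 43.7 FPKM in control HFD mice, beside 43.6 FPKM for *Cebpd* and 30.9 FPKM for *Pparg*, and of 6.88 FPKM in Mboat7 ASKO HFD mice, below the 8.75 FPKM of *Klf4*. Each gene overlapped its neighbours in this order in its range over the mice. The lowest values of *Cebpa* (33.3 FPKM) and *Cebpd* (27.3 FPKM) lay above the highest value of *Klf4* (21.3 FPKM), so the 2 most abundant C/EBP genes were separated from the lower 6. In the whole table, 4.72% of genes had a higher mean than *Cebpa*, and 86.0% had a higher mean than *Ppargc1a*. Tests used the 13147 genes that reached 1 FPKM in 4 or more mice. Of the 10 regulators, 9 were tested and *Ppargc1a* was not.

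**Figure D1:**
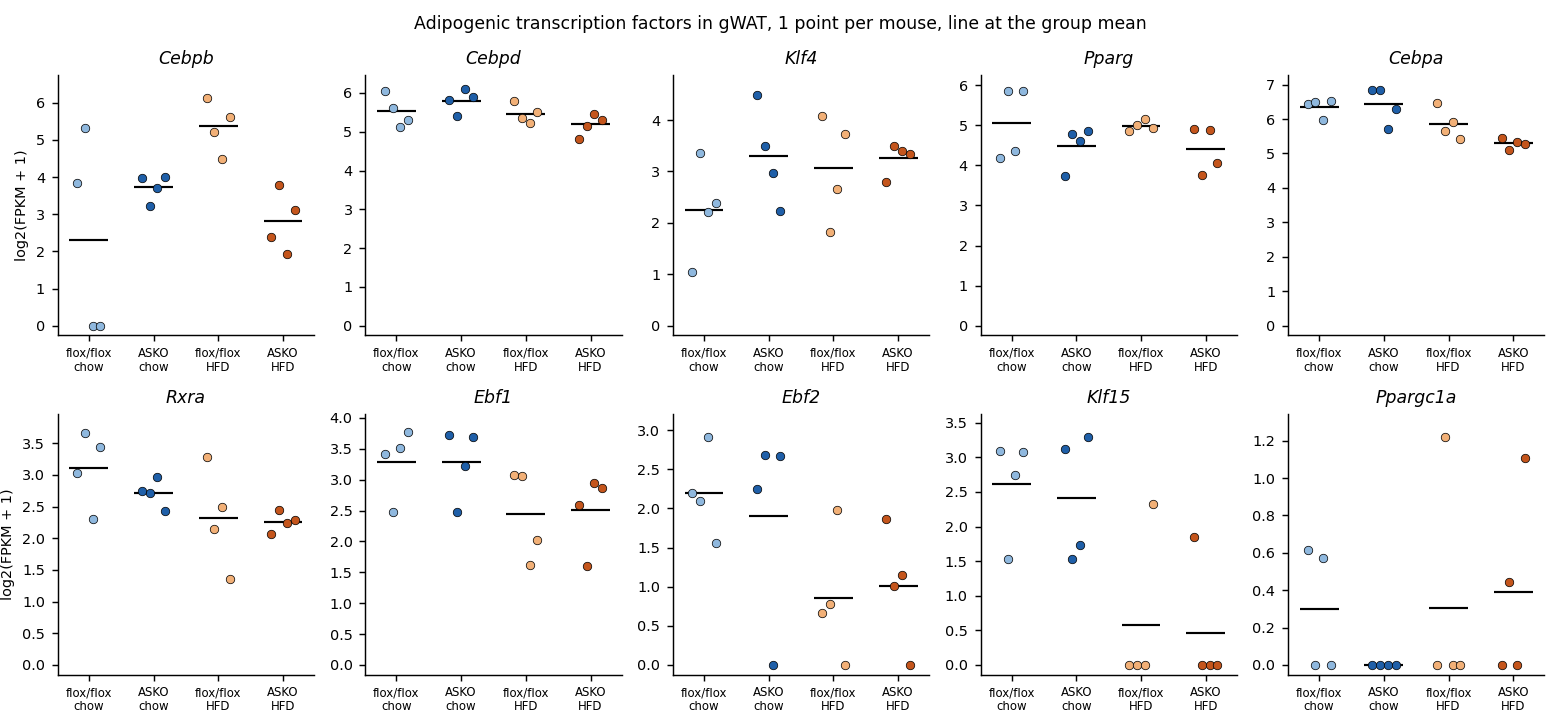
Level of each of the 10 regulators in every mouse, as log2(FPKM + 1), by genotype and diet, where each point is 1 mouse and each line a group mean. *Klf15* is at 0 in 6 of the 8 HFD mice and in none of the 8 chow mice, and *Ppargc1a* is at 0 in 11 of 16 mice.

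More genes were called with diet than with genotype. A gene was called at a limma adjusted p under 0.05 with an absolute log2 fold change over 0.5, on log2(FPKM + 1). Over both genotypes, HFD changed 2 of the 9 tested regulators, *Klf15* and *Cebpa*, and both fell. The background was 7.53% of the 13147 genes tested (590 up and 400 down). At an unadjusted p under 0.05 were 4 of 9 regulators, against 19.4% of all tested genes. In control mice alone 0 of 9 regulators passed (background 2.91%), with 2 at an unadjusted p under 0.05 (14.2% of all tested genes), and in Mboat7 ASKO mice alone 1 of 9 passed, *Cebpa* (background 3.43%), with 3 at an unadjusted p under 0.05 (1974 of all 13147 tested genes). The median log2 fold change of the 9 was -0.62 over both genotypes, -0.49 in control and -0.78 in Mboat7 ASKO mice, where the medians of all tested genes were 0.01, 2.5e-05 and 0.03. Below 0 were 7, 7 and 9 of the 9, and under upper-quartile scaling *Pparg* was above 0 in all 3 (0.07, 0.01 and 0.12), *Cebpd* in control mice (0.02) and *Klf4* in Mboat7 ASKO mice (0.16). The comparison over both genotypes is the mean of the other 2 and uses the same mice. In bulk tissue, fewer adipocytes and less RNA per adipocyte cannot be told apart.

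Scaling each mouse to the same upper quartile moved the median of all genes by 0.15 in Mboat7 ASKO mice. The share of calls that were up went from 59.6% to 71.0% over both genotypes (713 up and 291 down) and from 62.1% to 78.5% in Mboat7 ASKO mice (351 up and 96 down). After that scaling the diet differences of *Klf15* and *Cebpa* over both genotypes were -1.92 and -0.66, and the call of *Cebpa* was lost (adjusted p = 0.0810, in a range of 0.00661 to 0.0810).

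**Figure D2:**
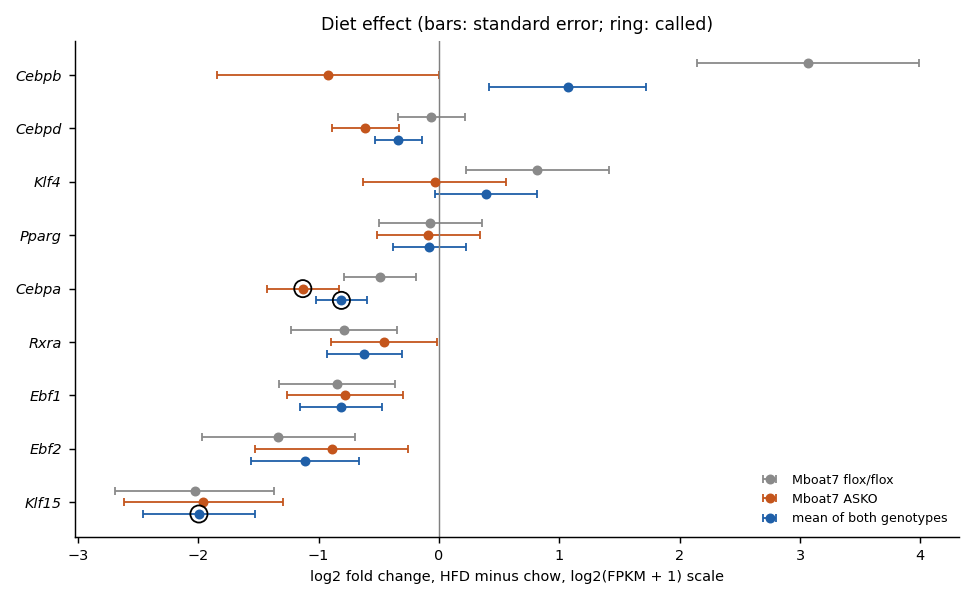
Log2 fold change (HFD minus chow, with its standard error) of the 9 tested regulators in control mice (flox/flox), Mboat7 ASKO mice and as the mean of both, where a ring marks a called value. *Klf15* (mean -1.99) and *Cebpa* (mean -0.81) are ringed, and *Pparg* (mean -0.08, and 0.07 under upper-quartile scaling) lies near 0.

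Among the early factors, *Cebpb* is induced first when progenitors start to differentiate and is also induced in inflammation. It stood at 13.3, 39.3, 0 and 0 FPKM in control chow mice and at 69.1, 35.9, 21.4 and 48.4 FPKM in control HFD mice. In Mboat7 ASKO mice it stood at 14.8, 8.4, 12.1 and 14.97 FPKM on chow and at 4.2, 12.7, 2.84 and 7.73 FPKM on HFD. The 4 control HFD mice were high, above every Mboat7 ASKO mouse of either diet, while the control chow mice spread from 0 to 39.3 FPKM and overlapped both genotypes' HFD values. In estimated fragments these levels were about 42, 16, 10 and 21 in control HFD mice and 2, 7, 2 and 4 in Mboat7 ASKO HFD mice. These counts rest on the step chosen for each mouse and are rough.

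The diet difference of *Cebpb* in control mice was 3.07 (SE 0.92) on the log2 scale and missed the threshold (adjusted p = 0.0954), and all 4 HFD mice were above 3 of the 4 chow mice. It rested on the chow group: without control chow mouse 1 it was 4.08 with adjusted p = 0.01005, and without control chow mouse 2 or 3, both at 0, it was 2.30 with adjusted p = 0.269 and 0.266, in a range of 0.01 to 0.269 over its alternatives. With a pseudocount of 0.1 it was 4.73 (adjusted p = 0.124). In Mboat7 ASKO mice the difference was -0.93 (SE 0.92, adjusted p = 0.723). The interaction of genotype and diet was -3.99 (SE 1.30) with adjusted p = 0.655, so the diet responses of the genotypes were not shown to differ.

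The exons of *Cebpb* overlap by 312 bases with *Tmem189* on the opposite strand in the annotation used here, and the table's own locus for *Cebpb* (chromosome 2, 167688914 to 167690418) covers that gene alone and the locus of *Tmem189* ends at 167661556. On HFD *Tmem189* stood at 4.7, 1.41, 2.42 and 3.09 FPKM in control mice and at 2.42, 1.15, 5.06 and 4.09 FPKM in Mboat7 ASKO mice. Its values overlapped between the genotypes, and its part in the values of *Cebpb* was not tested. The libraries were directional, but whether strand entered the quantification is not stated.

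*Cebpd*, the partner of *Cebpb* in the early wave and a gene induced by glucocorticoids, was not called. Its level was 46.6 ± 14.1 FPKM in control chow mice, 43.6 ± 7.75 FPKM in control HFD mice, 55.6 ± 10.8 FPKM in Mboat7 ASKO chow mice and 35.9 ± 6.69 FPKM in Mboat7 ASKO HFD mice (SD, n = 4 each). The last group was lowest, though its highest mouse (43.2 FPKM) was above the lowest Mboat7 ASKO chow mouse (41.5 FPKM). The diet difference was -0.34 over both genotypes (SE 0.20, adjusted p = 0.386), -0.06 in control and -0.61 in Mboat7 ASKO mice (adjusted p = 0.307). Under upper-quartile scaling it was -0.19 over both genotypes and -0.40 in Mboat7 ASKO mice. The overlapping gene *Spidr*, on the opposite strand, shares 562 exon bases and the same table locus, and ran from 0 to 8.1 FPKM.

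*Klf4*, a factor that works upstream of *Cebpb* in early differentiation, varied widely within groups. Its level was 4.56 ± 3.46 FPKM in control chow mice, 9.01 ± 6.18 FPKM in control HFD mice, 10.6 ± 7.68 FPKM in Mboat7 ASKO chow mice and 8.75 ± 1.90 FPKM in Mboat7 ASKO HFD mice (SD, n = 4 each). All 4 groups overlapped. The diet difference over both genotypes was 0.39 (SE 0.42, adjusted p = 0.697). It was 0.19 without control chow mouse 0, 0.21 without Mboat7 ASKO chow mouse 3, 0.22 without control HFD mouse 0, 0.59 without Mboat7 ASKO chow mouse 0 and 0.60 without control HFD mouse 1.

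Promoter sequences are shown for the regulators that fell with diet and for the master regulator, to set the control regions of those genes beside their values. RefSeq (build GRCm38.p6) held 12 promoter entries for 8 of the 10 regulators, without *Cebpd* and *Ebf2*, and 250 bases before each start were read. The motifs searched, on both strands, were TTNNGNAA (or TTNCNNAA) of C/EBP proteins, CCNCNCCC (or GGGNGNGG) of KLF and SP proteins, CCCNNGGG of EBF proteins, AGGTCA (or TGACCT) of nuclear receptors such as PPARγ with RXRα, and ACANNNTGT of the glucocorticoid receptor. Of 32851 promoters of this length, 36.8%, 45.9%, 11.8%, 14.0% and 5.84% held them, in that order. Of the 12 entries of the regulators, 3, 11, 1, 3 and 0 held them, so that the KLF and SP motif was in every entry but that of *Ppargc1a*, whether or not the gene was called. Capitals mark the KLF and SP motif in the *Cebpa* (chr7:35119043-35119292, plus strand, 1 match) and *Klf15* (chr6:90462326-90462575, plus strand, 3 matches) promoters. In *Pparg* entry 3, a start inside the gene (chr6:115421816-115422065, plus strand), they mark the C/EBP motif, with 2 matches, and that entry is shown because the other 2 *Pparg* entries held no C/EBP match. It also held 1 KLF and SP match, which is not marked. A match is a description of letters, with nothing shown about binding.
Cebpa: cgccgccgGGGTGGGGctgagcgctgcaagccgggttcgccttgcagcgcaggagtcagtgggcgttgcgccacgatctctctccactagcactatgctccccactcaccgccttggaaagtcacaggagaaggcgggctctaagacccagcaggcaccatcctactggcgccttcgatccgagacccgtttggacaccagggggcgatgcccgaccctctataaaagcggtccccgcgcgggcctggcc
Klf15: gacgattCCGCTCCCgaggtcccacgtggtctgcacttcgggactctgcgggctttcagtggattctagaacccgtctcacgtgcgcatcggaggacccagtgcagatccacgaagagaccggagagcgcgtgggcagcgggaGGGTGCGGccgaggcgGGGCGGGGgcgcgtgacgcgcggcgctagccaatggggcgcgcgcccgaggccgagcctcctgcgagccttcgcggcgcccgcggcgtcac
Pparg entry 3: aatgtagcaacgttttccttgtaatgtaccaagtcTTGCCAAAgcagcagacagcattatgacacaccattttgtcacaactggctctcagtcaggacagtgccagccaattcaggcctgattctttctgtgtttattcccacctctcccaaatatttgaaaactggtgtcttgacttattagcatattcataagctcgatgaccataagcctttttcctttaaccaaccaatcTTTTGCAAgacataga

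*Pparg*, the master regulator of fat cell identity, was not called with diet. It stood at 17.1, 56.9, 19.5 and 57.1 FPKM in control chow mice and at 27.9, 31.2, 34.8 and 29.6 FPKM in control HFD mice. The Mboat7 ASKO mice had 12.3, 26.5, 23.2 and 28.1 FPKM on chow and 29.2, 12.6, 28.3 and 15.7 FPKM on HFD. Control chow mice 1 and 3 were far above the other mice, the 4 control HFD mice lay close together, and chow and HFD overlapped in both genotypes. The diet difference was -0.08 over both genotypes (SE 0.30, adjusted p = 0.934), -0.07 in control and -0.09 in Mboat7 ASKO mice, a size of change these data cannot tell from 0. Its sign turned under upper-quartile scaling (0.07 over both genotypes), without control chow mouse 1 or 3 (0.05 each) and without Mboat7 ASKO HFD mouse 1 (0.03).

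*Cebpa*, the factor that works with PPARγ to establish and keep the mature fat cell, fell with diet. It stood at 85.8, 89.7, 61.4 and 91.5 FPKM in control chow mice and at 87.9, 49.8, 58.8 and 42.2 FPKM in control HFD mice. The Mboat7 ASKO mice had 115, 113, 51.3 and 77.7 FPKM on chow and 42.6, 33.3, 39.7 and 37.7 FPKM on HFD. Every Mboat7 ASKO HFD mouse was below every Mboat7 ASKO chow mouse, while in control mice the diets overlapped through HFD mouse 0 alone. In groups of 4 mice that do not overlap between the diets, *Cebpa* was the 1 regulator of 9 in Mboat7 ASKO mice, where 9.6% of all tested genes had that pattern, and in control mice it was 0 of 9 against 8.34% of all tested genes.

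The diet difference of *Cebpa* over both genotypes was -0.81 (SE 0.21, adjusted p = 0.0261), and 7 of 8 HFD mice were below 61.4 FPKM while 7 of 8 chow mice were at or above it. This call was near the threshold. It was lost under upper-quartile scaling (-0.66, adjusted p = 0.0810), without the intensity trend (adjusted p = 0.0594) and when any of 7 mice was left out: control chow mouse 1 (0.0535) or 3 (0.0539), Mboat7 ASKO chow mouse 0 (0.0505) or 1 (0.0572), control HFD mouse 1 (0.0534) or 3 (0.0571), or Mboat7 ASKO HFD mouse 1 (0.0539). Over its 23 alternatives the adjusted p ran from 0.00661 to 0.0810 and the difference from -0.93 to -0.66.

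Among Mboat7 ASKO mice the diet difference of *Cebpa* was -1.13 (SE 0.30, adjusted p = 0.0484). It was called in only 2 of 16 runs that left out 1 mouse, those without Mboat7 ASKO chow mouse 2 (-1.37, adjusted p = 0.0148) and without control HFD mouse 0 (adjusted p = 0.0320). Without any of the other 14 mice the adjusted p was above 0.05, up to 0.137 without Mboat7 ASKO chow mouse 1 (-0.996). The call was also lost in 6 of 8 other settings: upper-quartile scaling (-0.91, adjusted p = 0.133), quantile normalization (0.0992), only those groups in the fit (0.115), no intensity trend (0.105), no filter (0.0608) and the replicate block (0.0510), in a range of 0.0148 to 0.137 over all 24 alternatives. In control mice the difference was -0.49 (SE 0.30, adjusted p = 0.516), and the interaction was -0.64 (SE 0.43, adjusted p = 0.843), so a larger fall in Mboat7 ASKO mice was not shown. *Gm45091*, an antisense gene sharing 51 exon bases and the table locus with *Cebpa*, was listed at 0 in 14 mice and at 8.12 and 9.44 FPKM in control HFD mice 0 and 2, the mice with the highest *Cebpa* of their group. Its part in those values was not tested.

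*Rxra*, the DNA-binding partner of PPARγ, was lower than *Pparg* in every group by mean level. It was 8.15 ± 3.35 FPKM in control chow mice, 4.6 ± 3.05 FPKM in control HFD mice, 5.63 ± 0.971 FPKM in Mboat7 ASKO chow mice and 3.82 ± 0.513 FPKM in Mboat7 ASKO HFD mice (SD, n = 4 each). Chow and HFD overlapped in both genotypes. The diet difference over both genotypes was -0.62 (SE 0.31, adjusted p = 0.296).

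*Ebf1* and *Ebf2* are early B cell factors that prime adipocyte genes, with *Ebf2* best known from beige and brown precursors. *Ebf1* stood at 9.32 ± 3.40 and 4.99 ± 2.83 FPKM on chow and HFD in control mice, and at 9.28 ± 3.60 and 5.02 ± 2.12 FPKM in Mboat7 ASKO mice (SD, n = 4 each). The genotypes had near equal means, and the diets overlapped in each through mouse 1 on chow. Its diet difference over both genotypes was -0.81 (SE 0.34, adjusted p = 0.188), as large as that of *Cebpa* but with a larger error.

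*Ebf2* stood at 3.59, 3.27, 6.51 and 1.95 FPKM in control chow mice and at 0.587, 0.721, 2.93 and 0 FPKM in control HFD mice. Mboat7 ASKO mice had 3.76, 5.4, 0 and 5.36 FPKM on chow and 2.64, 1.02, 1.22 and 0 FPKM on HFD. HFD mice were low in both genotypes. The diets overlapped in control mice through chow mouse 3 and HFD mouse 2, and in Mboat7 ASKO mice through chow mouse 2, at 0. The diet difference over both genotypes was -1.11 (SE 0.45, adjusted p = 0.168), with a pseudocount of 0.1 it was -1.85, and without Mboat7 ASKO chow mouse 2 it was -1.43 with adjusted p = 0.0333 and was called, in a range of 0.0333 to 0.348 over its alternatives. The antisense gene *Gm10860*, which shares 424 exon bases and the table locus with *Ebf2*, ran from 8.7 to 50.9 FPKM, above the highest *Ebf2* value in all 16 mice. Its own lowest value was in the same Mboat7 ASKO chow mouse 2, and its part in the values of *Ebf2* was not tested.

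*Klf15*, a Krüppel-like factor of mature adipocytes that is induced by glucocorticoids and acts on genes of amino acid and glucose use, showed the largest fall among the regulators. It stood at 7.53, 1.9, 5.7 and 7.46 FPKM in control chow mice and at 0, 0, 0 and 4.03 FPKM in control HFD mice. In Mboat7 ASKO mice it stood at 7.69, 1.89, 2.32 and 8.79 FPKM on chow and at 2.59, 0, 0 and 0 FPKM on HFD. It was above 0 in 8 of 8 chow mice and in 2 of 8 HFD mice, and those 2 HFD mice lay within the chow range. The diet difference over both genotypes was -1.99 (SE 0.47, adjusted p = 0.0133), and it was called in all 23 alternatives, with adjusted p from 0.00315 to 0.0308. All of these draw on the same values of 0, so they do not test whether those are failed estimates. By the rough estimate of fragments above, the chow values also rest on few fragments. With a pseudocount of 0.1 the difference was -4.28, so the size depends on how values of 0 are treated.

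Within each genotype alone the difference of *Klf15* was of similar size and missed the threshold, at -2.03 in control (SE 0.66, adjusted p = 0.130) and -1.96 in Mboat7 ASKO mice (SE 0.66, adjusted p = 0.136). Without control HFD mouse 3, at 4.03 FPKM, the difference in control mice was -2.61 with adjusted p = 0.0394, in a range of 0.0394 to 0.277. The interaction was 0.07 (SE 0.94, adjusted p = 0.996).

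*Ppargc1a*, the coactivator of mitochondrial genes, was listed at 0 in 11 of 16 mice. Its values above 0 were 0.53 and 0.489 FPKM in control chow mice 0 and 2, 1.33 FPKM in control HFD mouse 1, and 0.361 and 1.16 FPKM in Mboat7 ASKO HFD mice 1 and 3. No Mboat7 ASKO chow mouse was above 0. It did not reach the filter on low values, so no test was run.

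Some target genes of PPARγ fell with diet. Of 30 target genes, 29 were tested, and over both genotypes 12 fell and 0 rose, where 7.53% of all tested genes were called in either direction. Below 0 were 22 of the 29, called or not, and their median log2 fold change was -0.70 where that of all tested genes was 0.01. The largest falls were those of *Cfd*, which encodes the adipokine adipsin (-5.80, adjusted p = 7.2e-10), the glyceroneogenesis enzyme gene *Pck1* (-2.93, adjusted p = 2e-07) and the adipokine gene *Retn* (-2.91, adjusted p = 0.000104). The most abundant targets were *Fabp4* (-0.82, adjusted p = 0.0474), the desaturase gene *Scd1* (-1.43, adjusted p = 0.000941) and *Adipoq* (-1.52, adjusted p = 3.69e-05). In control mice 6 of 29 fell, *Cfd*, *Pck1*, *Retn*, *Acaca*, *Scd1* and *Adipoq* (median -0.44), and in Mboat7 ASKO mice 6 of 29 fell, *Cfd*, *Retn*, *Pck1*, *Pnpla2*, *Plin4* and *Adipoq* (median -0.84), with 0 rises in each. Of all tested genes 2.91% were called in control and 3.43% in Mboat7 ASKO mice. All 8 HFD mice were below all 8 chow mice in *Cfd*, *Pck1*, *Retn*, *Acaca* and *Adipoq*, while 7 were in *Scd1*, 6 in *Fabp4* and *Pnpla2* and 5 in *Plin4*. These groups of 8 did not overlap between the diets in 2.22% of all tested genes and in 0 regulators.

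The summed level of the target genes was 14482 to 30049.5 FPKM in the 8 chow mice and 5680 to 12101 FPKM in the 8 HFD mice, with no overlap. Under alternatives the count of falls over both genotypes ran from 8 to 13, with 8 under upper-quartile scaling and without Mboat7 ASKO chow mouse 1 or Mboat7 ASKO HFD mouse 2. *Fabp4* was called in only 5 of 23 alternatives (adjusted p from 0.0255 to 0.214), *Plin4* in 7 (0.0242 to 0.0993) and *Pnpla2* in 12 (0.0204 to 0.0720). *Cfd*, *Pck1*, *Retn*, *Acaca*, *Scd1* and *Adipoq* were called in all 23. With diet among Mboat7 ASKO mice *Pnpla2* and *Plin4* were each called in 13 of 24 alternatives. In control mice the call of *Retn* was lost with only those groups in the fit (adjusted p = 0.0760, the highest in a range from 0.00102).

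**Figure D3:**
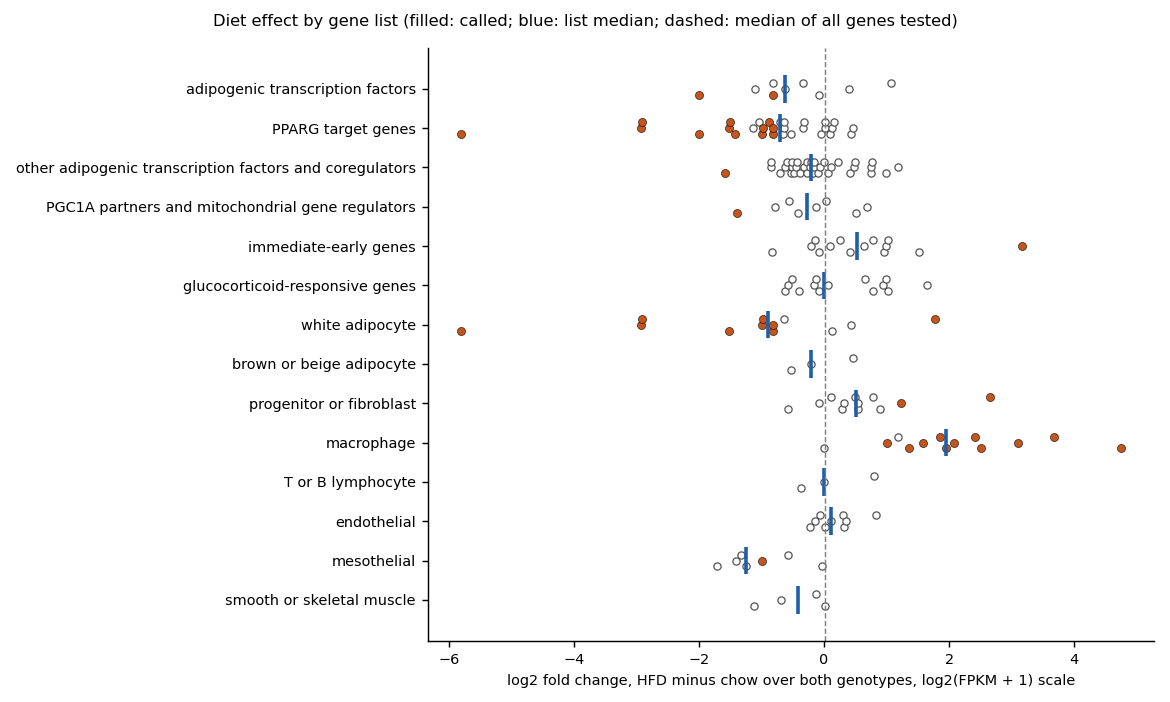
Log2 fold change with diet over both genotypes (HFD minus chow) of each tested gene, by gene list, where a filled point is called, a blue line is the list median and the dashed line is the median of all tested genes (0.01). PPARG target genes lie mostly below 0 (median -0.70, 12 called down) and macrophage markers above (median 1.95, 11 called up).

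Other regulators of fat cell formation were examined in the same way. Of 45 other adipogenic factors and coregulators, 35 were tested and 1 fell over both genotypes, where 7.53% of all tested genes were called. It was *Tcf7l2*, a factor of Wnt signaling and the most abundant of the list (33.1 FPKM; -1.58, adjusted p = 0.00334), with a list median of -0.21. *Tcf7l2* also fell in Mboat7 ASKO mice (-2.24, adjusted p = 0.00709), and in control mice its difference was -0.93 (adjusted p = 0.345). The call in Mboat7 ASKO mice was lost with only those groups in the fit (adjusted p = 0.0544, the highest in a range from 0.00501). The next most abundant were *Ddit3* (0.75, adjusted p = 0.178) and *Klf6* (0.77, adjusted p = 0.0940). *Klf6* was called under upper-quartile scaling (0.92, adjusted p = 0.0345) and without control HFD mouse 0 (0.92, adjusted p = 0.0288), in a range of 0.0288 to 0.177. All 8 HFD mice were below all 8 chow mice in *Tcf7l2*. Of 16 partners of PGC-1α and regulators of mitochondrial genes, 8 were tested and 1 fell, the thyroid hormone receptor gene *Thra* (-1.39, adjusted p = 0.000503, 7 of 8 HFD mice below all chow mice), with a median of -0.27. *Thra* was the most abundant of that list (149 FPKM), and 7 of the 16 genes were listed at 0 in at least 12 mice. Exon overlap with other genes was examined only for the regulators and *Mboat7*, and not for *Thra* or other genes of the lists. *Thra* fell in Mboat7 ASKO mice (-2.001, adjusted p = 0.000985), and its difference in control mice was -0.79 (adjusted p = 0.226).

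As *Cebpb*, *Cebpd* and *Klf4* also respond to stress and handling, and *Klf15* and *Cebpd* to glucocorticoids, lists for both were examined. Of 20 immediate-early genes, 14 were tested and 1 rose over both genotypes, the stress factor gene *Atf3* (3.16, adjusted p = 5.07e-05, 8 of 8 HFD mice above all chow mice), with a median of 0.53. A count of 1 in 14 is near the 7.53% called among all tested genes. *Atf3* rose by 2.60 in control (adjusted p = 0.0133) and by 3.72 in Mboat7 ASKO mice (adjusted p = 0.000712), and the call in control mice was lost with only those groups in the fit (adjusted p = 0.0694, the highest in a range from 0.00323). The most abundant immediate-early genes, *Jund*, *Fosl1* and *Zfp36*, were not called. Of 15 glucocorticoid-responsive genes, 14 were tested and 0 passed, with a median of -0.01. The most abundant of these, *Mt2* (0.99), *Tsc22d3* (-0.13) and *Cdkn1a* (1.65), had adjusted p of 0.637, 0.855 and 0.106.

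Cell type markers moved with diet beside these regulators. All 13 macrophage markers were tested, and 11 rose and 0 fell over both genotypes (median 1.95; 7.53% of all tested genes called), led by *Trem2* (4.76, adjusted p = 2.02e-05), *Cd68* (3.68, adjusted p = 7.18e-05) and *Adgre1* (3.10, adjusted p = 0.000271). All 8 HFD mice were above all 8 chow mice in *Trem2* and *Cd68*, and 7 were in *Adgre1*. In control mice 7 rose (2.91% of all tested genes called), and 4 rose without control chow mouse 2 or 3 or without control HFD mouse 1 or 3. Among Mboat7 ASKO mice 9 rose (3.43% of all tested genes called). Their summed level was 277, 308, 256 and 304 FPKM in control chow mice, 835, 1093, 679 and 993 FPKM in control HFD mice, 228, 276, 298 and 283 FPKM in Mboat7 ASKO chow mice and 1261, 1362, 890 and 1266 FPKM in Mboat7 ASKO HFD mice. Every HFD mouse was above every chow mouse. The most abundant gene was *Lyz2* (258 FPKM), and none of the 13 was at 0 in 12 or more mice.

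White adipocyte markers were all tested (12 of 12, of which 11 are also PPARG target genes), and over both genotypes 8 fell and *Lep*, the leptin gene, rose (1.78, adjusted p = 9.27e-05, 8 of 8 HFD mice above all chow mice), with a median of -0.89, where 7.53% of all tested genes were called. The 8 falls became 5 under upper-quartile scaling and without the intensity trend, where *Fabp4*, *Plin1* and *Pnpla2* were not called, and 6 to 8 when 1 mouse was left out. Their summed level was 10760, 18453, 14572 and 11917 FPKM in control chow mice, 10942, 6604, 8677 and 4795 FPKM in control HFD mice, 9460, 14106, 26223 and 13218 FPKM in Mboat7 ASKO chow mice and 7407, 7337, 6664 and 6608 FPKM in Mboat7 ASKO HFD mice. Chow and HFD overlapped in control mice through HFD mouse 0, which was also the control HFD mouse with the highest *Cebpa*, and they did not overlap in Mboat7 ASKO mice. *Fabp4* made up most of this sum (8054 FPKM), and none of these markers was at 0 in 12 or more mice.

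Of 12 progenitor or fibroblast markers, all tested, 2 rose, the matrix genes *Lum* (2.65, adjusted p = 7.17e-07, 8 of 8) and *Col3a1* (1.22, adjusted p = 0.0127, 7 of 8 HFD mice above all chow mice), with a median of 0.51, and the most abundant was *Dcn* (146 FPKM). These 2 of 12 stand beside 7.53% of all tested genes. Their summed level was 221, 184, 214 and 319 FPKM in control chow mice, 331, 366, 412 and 439 FPKM in control HFD mice, 211, 237, 181 and 233 FPKM in Mboat7 ASKO chow mice and 477, 540, 467 and 502 FPKM in Mboat7 ASKO HFD mice. Every HFD mouse was above every chow mouse. Of 8 mesothelial markers, 7 were tested and *Lrrn4* fell (-0.99, adjusted p = 0.0242, 8 of 8 HFD mice below the chow median and 0 of 8 below all chow mice), a call that was lost without Mboat7 ASKO chow mouse 1 (adjusted p = 0.0514, in a range of 0.0147 to 0.0514), and 1 of 7 stands beside the same 7.53%. The median of that list was -1.25, its most abundant gene was *Upk3b* (5.998 FPKM) and *Krt8* was at 0 in at least 12 mice. The summed mesothelial level was 18.3, 35.3, 39.3 and 39.8 FPKM in control chow mice, 4.11, 3.21, 3.88 and 30.0 FPKM in control HFD mice, 21.8, 30.0, 14.3 and 21.6 FPKM in Mboat7 ASKO chow mice and 8.56, 6.58, 1.65 and 8.97 FPKM in Mboat7 ASKO HFD mice. Chow and HFD overlapped through control HFD mouse 3 alone.

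Markers of other cell types were not called with diet over both genotypes by limma: 0 of 9 tested endothelial genes passed (median 0.11, most abundant *Pecam1* at 20.9 FPKM), 0 of 4 muscle genes (median -0.41, *Tagln* at 27.2 FPKM), 0 of 3 lymphocyte genes (median -0.00, *Cd2* at 2.18 FPKM) and 0 of 3 brown or beige adipocyte genes (median -0.21). The share called among all tested genes was 7.53%, so 0 calls in lists this short say little about these cell types. Of the lymphocyte markers, *Cd3d*, *Cd3g*, *Cd4*, *Cd8a* and *Ms4a1* were at 0 in at least 12 mice. The part of macrophages, progenitors, mesothelium and adipocyte number in the diet differences of *Cebpa*, *Klf15* and the other regulators was not tested.

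**Figure D4:**
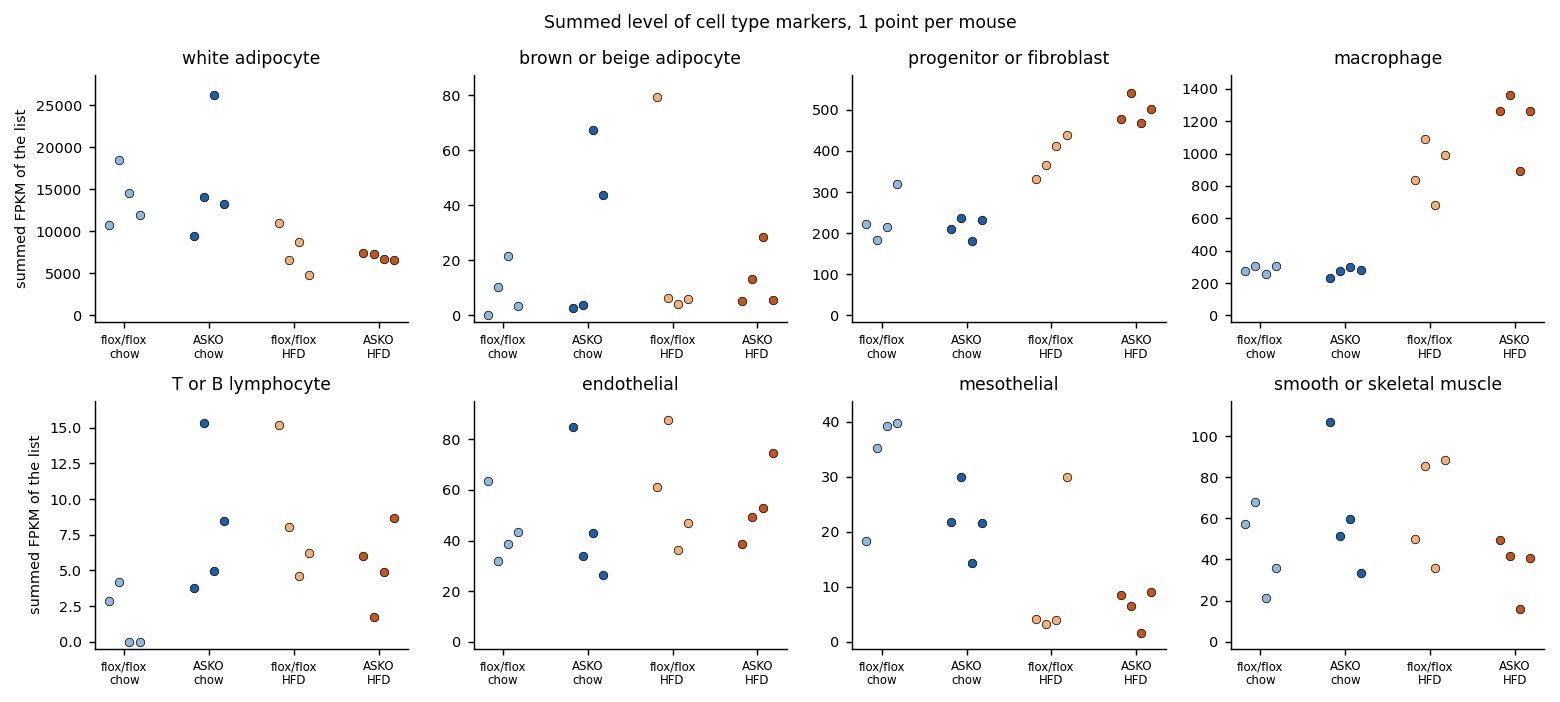
Summed FPKM of 8 marker lists in every mouse, by genotype and diet, where each point is 1 mouse. The macrophage sum is 228 to 308 FPKM in the 8 chow mice and 679 to 1362 FPKM in the 8 HFD mice, and the white adipocyte sum is lower on HFD with 1 control mouse at 10942 FPKM.

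The genotype comparisons ask whether loss of *Mboat7* from adipocytes is accompanied by a change in these regulators. *Mboat7* itself was not shown to differ in these libraries, with log2 differences of -1.12 on chow (exact permutation p = 0.143) and -0.02 on HFD. The paper reported less MBOAT7 protein in gWAT of chow-fed Mboat7 ASKO mice. The absence of calls between genotypes is to be read with this limit. On HFD 0 of 9 tested regulators passed limma's test (background 0.00761%, 1 gene of 13147), and 1 had an unadjusted p under 0.05 (5.15% of all tested genes). That was *Cebpb*, at 21.4 to 69.1 FPKM in the 4 control mice and 2.84 to 12.7 FPKM in the 4 Mboat7 ASKO mice. The genotypes did not overlap in this gene, the 1 regulator of 9 of which that was true, against 3.38% of all tested genes. Its difference was -2.55 (SE 0.92) with adjusted p = 0.876, which fails the correction, and it was not called in any of 24 alternatives (adjusted p from 0.301 to 1). The differences of *Pparg* and *Cebpa* were -0.59 (SE 0.43, adjusted p = 0.985) and -0.58 (SE 0.30, adjusted p = 0.973), and those of the other 6 lay between -0.28 and 0.19. That of *Pparg* was -0.37 without Mboat7 ASKO HFD mouse 1, and that of *Cebpa* was -0.38 without control HFD mouse 0. The median of the 9 was -0.12, and that of all tested genes was 0.02.

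On chow 0 of 9 regulators passed limma's test (background 0.00761%), and 0 had an unadjusted p under 0.05 (4.8% of all tested genes). No regulator was without overlap between the genotypes, against 2.19% of all tested genes. The largest differences were those of *Cebpb* (1.44, SE 0.92) and *Klf4* (1.046, SE 0.60), each with adjusted p = 0.983, and *Cebpb* was above 0 in 4 of 4 Mboat7 ASKO mice and in 2 of 4 control mice. That of *Cebpb* rested on single mice: it was 0.67 without control chow mouse 2 or 3, below that of *Klf4*, and 2.45 without control chow mouse 1. That of *Klf4* was 0.64 without control chow mouse 0 and 0.65 without Mboat7 ASKO chow mouse 0, and without Mboat7 ASKO chow mouse 3 it was 1.40, above that of *Cebpb* at 1.35. The median of the 9 was -0.01. In the genotype-by-diet interaction 0 of 9 regulators and 0 of 13147 genes passed limma's test (background 0%), with 1 regulator, *Cebpb*, and 827 genes (6.29%) at an unadjusted p under 0.05. In each of the 14 lists 0 genes passed in either genotype comparison or in the interaction. The macrophage markers on HFD had a median difference of 0.42, with 1 of 13 below 0, where that of all tested genes was 0.02. Their sums overlapped between the genotypes on HFD. The progenitor sums did not, at 331 to 439 FPKM in control and 467 to 540 FPKM in Mboat7 ASKO mice. The paper reported higher *Cd68*, *Itgax* and *Clec7a* in gWAT of Mboat7 ASKO mice on HFD. By limma *Cd68* was not called there (adjusted p = 0.983). The single gene called between genotypes on HFD, named here after its values were seen, was *Cdk20* (-2.04, adjusted p = 0.0271), and with 1 mouse left out the counts of genes called ran from 0 to 3 on HFD and from 0 to 4 on chow.

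**Figure D5:**
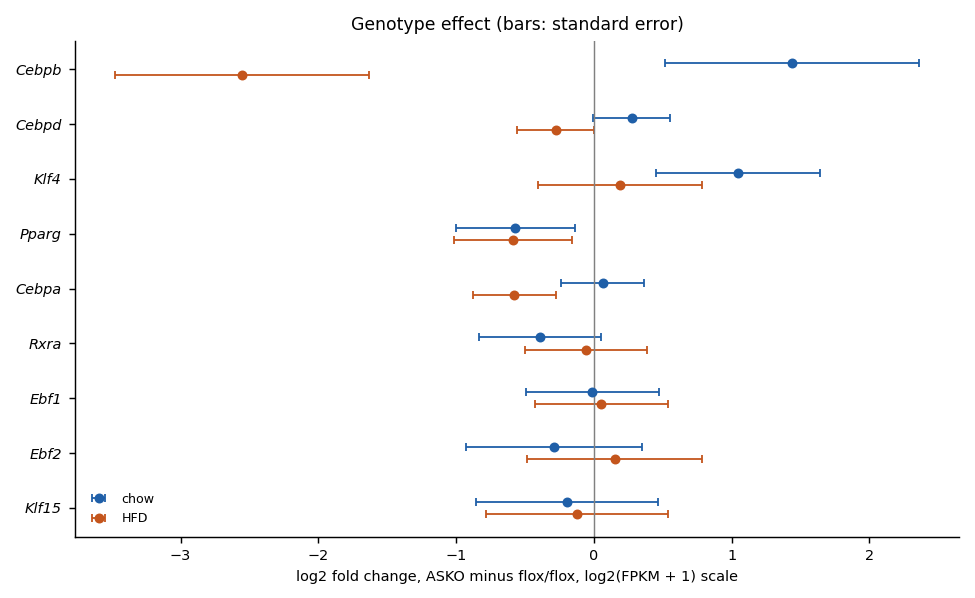
Log2 fold change (Mboat7 ASKO minus control, with its standard error) of the 9 tested regulators on chow and on HFD, where no value is called. *Cebpb* is at -2.55 on HFD and at 1.44 on chow, where it is 0.67 without control chow mouse 2 or 3.

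Genes whose level over the 16 mice followed that of a regulator most closely were named by Pearson r of log2(FPKM + 1), as a description over mice that share diets and genotypes. They were picked as the highest r among all tested genes. High r and a diet difference shared with the regulator therefore follow in part from the choice. For *Klf15* they were *Slc44a3* (r = 0.863), *Aldh6a1* (0.859) and *Adgrg2* (0.856), and all 3 also fell with diet, by log2 differences of -1.75, -1.26 and -1.76. *Aldh6a1* encodes a mitochondrial enzyme of valine breakdown. For *Cebpa* they were *1700020L24Rik* (0.886), *Dab2ip* (0.874) and *Klhdc7a* (0.866), and for *Ebf1* they were *Slc35g2* (0.85), *Pptc7* (0.83) and *Cd209f* (0.782). With diet over both genotypes, *1700020L24Rik*, *Klhdc7a*, *Pptc7* and *Cd209f* fell, with log2 differences of -1.11, -1.09, -1.83 and -2.04.

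The genes most like *Pparg* were *Fam53c* (0.776), *Eif1ad* (0.752) and *Med20* (0.739), and those most like *Rxra* were *Mmp28* (0.831), *Yrdc* (0.814) and *Nt5m* (0.813). For *Cebpb* they were *Gm38336* (0.82), *Ncaph2* (0.817) and *Cpd* (0.79), and for *Cebpd* they were *Lig3* (0.863), *Rpl22* (0.851) and *Kif20a* (0.848). For *Ebf2* they were *Gm17634* (0.897), *Ywhab* (0.888) and *Ptpn11* (0.859), and for *Klf4* they were *Elp5* (0.853), *Ube2j2* (0.772) and *Gm7536* (0.77). None of these 18 genes was called with diet over both genotypes. Among the regulators themselves the closest pairs were *Cebpa* with *Rxra* (0.659), *Cebpa* with *Ebf2* (0.599) and *Klf15* with *Ebf1* (0.586), and *Pparg* with *Cebpa* gave 0.215 (n = 16 mice for each).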

How the data were processed

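RNA-seq of gWAT from 16 male mice was used, 4 per genotype and diet. The authors trimmed the reads, aligned them with STAR to mm10 guided by GENCODE and quantified genes with Cufflinks, and the FPKM of the authors were taken as deposited. The library normalization of Cufflinks, its strand setting and the GENCODE release are not stated. Of the gene identifiers, 99.6% were found in GENCODE M21. The table held 22 gene names as numbers, which were repaired by identifier, and for 20 symbols listed more than 1 time the entry with the highest mean was used.

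Values were analysed as log2(FPKM + 1) in limma 3.58.1 (R 4.3.3), with an intensity trend and all 4 groups in 1 fit, for genes that reached 1 FPKM in 4 or more mice. Adjusted p-values are Benjamini-Hochberg values within a contrast, and there were 6 contrasts: diet over both genotypes, diet in each genotype, genotype on each diet, and the interaction. A gene was called at an adjusted p under 0.05 and an absolute log2 fold change over 0.5. The code was tested on simulated data. Fold changes are log2 differences on this scale, which are smaller than those of FPKM itself for genes with low values, and standard errors are limma's moderated ones. *Mboat7* was compared by exact permutation of log2(FPKM + 1).

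The members and the 14 lists were chosen with earlier results of these data known. The lists were PPARG target genes, other adipogenic factors and coregulators, PGC1A partners, immediate-early genes, glucocorticoid-responsive genes, and markers of white adipocytes, brown or beige adipocytes, progenitors, macrophages, lymphocytes, endothelium, mesothelium, muscle, and epididymis or testis. Genes named were the 10 regulators, *Mboat7*, genes whose exons overlap theirs and the 3 genes most like each regulator by Pearson r. Each list gave its called members (if more than 6, the 3 largest rises and falls) and up to 3 of its most abundant. Others were named for a stated reason, such as *Plin1* for a lost call and *Cdk20* and *Rpl13* after their values were seen. The fragments behind a value were estimated from the spacing of low FPKM. Tables and figures were made with Python 3.11.15, pandas 2.3.3, numpy 2.4.6 and matplotlib 3.10.9.

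Alternatives were leaving out each mouse in turn, scaling by quantiles or by the upper quartile, a filter of 5 FPKM or none, a pseudocount of 0.1, only the groups of a contrast in the fit, no intensity trend, and a block for the replicate number.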

Additional observations from a re-analysis of the deposited data

Results flagged for a closer look

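In 96 groups of 4 mice, 6 values lay far from the other 3 (by Dixon's ratio of gap to range), where chance gives about 1 in 20 groups. In 4 of the 6 the other 3 mice were at 0, so that any value above 0 is far from them and that rate does not apply. *Klf15* stood at 4.03 FPKM in control HFD mouse 3 and at 2.59 FPKM in Mboat7 ASKO HFD mouse 0, where the other 3 mice of each group were listed at 0. *Ppargc1a* stood at 1.33 FPKM in control HFD mouse 1 and at 0 in the other 3. The summed level of brown or beige adipocyte markers was 79.4 FPKM in control HFD mouse 0, against 4.1, 5.78 and 6.42 FPKM in the others. The mesothelial sum was 30.0 FPKM in control HFD mouse 3, against 3.21, 3.88 and 4.11 FPKM in the others. In the same mouse the epididymis or testis sum was 0.736 FPKM, where the other 3 mice were at 0.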

How the results depend on the processing

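Of 1272 fold changes of single regulators recomputed under 24 alternatives, 1168 kept their sign and side of the threshold, 29 lost a call, 3 gained it and 72, from 18 of the 54 fold changes, changed sign, none of them called in either setting. With diet over both genotypes the count of 2 regulators became 1 (*Klf15* alone) under upper-quartile scaling and without the intensity trend, and 1 to 3 when 1 mouse was left out; the cause was not tested. In control mice the count of 0 became 0 to 1 without 1 mouse. In Mboat7 ASKO mice the count of 1 became 0 with no filter, quantile normalization, upper-quartile scaling, only the groups of the contrast, no intensity trend or the replicate block, and 0 to 1 without 1 mouse. Regulators called by genotype or interaction were 0 in every alternative. With diet, 255 genes in control and 265 in Mboat7 ASKO mice were called with only the groups of the contrast in the fit (fewer mice), and without 1 mouse 255 to 421 (lowest without control chow mouse 1) and 265 to 493 (lowest without Mboat7 ASKO HFD mouse 0). Genes called by genotype on HFD were 2 with no filter, 0 with a filter of 5 FPKM, quantile normalization, only those groups or the block, and 0 to 3 without 1 mouse; on chow they were 2 with no filter, 0 with a filter of 5 FPKM, upper-quartile scaling or the block, and 0 to 4 without 1 mouse. The interaction gave 0 to 1 without 1 mouse. The *Mboat7* difference on HFD changed sign under upper-quartile scaling (0.00649, exact permutation p = 1). Only the groups of a contrast could not be tried where all 4 groups enter. Replicate numbers mark different animals, and the labels do not say whether they follow a pairing or a batch. After removal of group means, 8 of 16 mice correlated best with a mouse of the same number in another group. The median r was 0.0066 for pairs of the same number and -0.0042 for other pairs. Depth limits the regulators with the lowest FPKM (*Ppargc1a*, *Ebf2*, *Klf15*). Counts for the gene lists were recomputed under the same alternatives after their values had been seen.

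Sign changes were as follows, and the cause was not tested. Under upper-quartile scaling *Pparg* with diet was 0.066468 over both genotypes, 0.0100813 in control and 0.122855 in Mboat7 ASKO mice, *Cebpd* with diet was 0.0198344 in control mice, *Klf4* with diet was 0.164193 in Mboat7 ASKO mice, *Cebpa* by genotype on chow was -0.0196399 and the *Pparg* interaction was 0.112773. Under quantile normalization these were 0.0182938 for *Pparg* with diet in Mboat7 ASKO mice, -0.0329846 for *Cebpa* on chow and 0.0654377 for the *Pparg* interaction. Without 1 mouse, diet differences of *Pparg* ran from -0.228597 to 0.0521067 over both genotypes, -0.367311 to 0.194096 in control and -0.345011 to 0.123543 in Mboat7 ASKO mice, of *Cebpd* from -0.200517 to 0.113852 in control mice and of *Klf4* from -0.389376 to 0.358124 in Mboat7 ASKO mice. Genotype differences on HFD ran from -0.582322 to 0.460649 (*Klf15*), -0.38083 to 0.263207 (*Rxra*), -0.221549 to 0.354292 (*Ebf1*), -0.134719 to 0.524183 (*Ebf2*) and -0.227734 to 0.52899 (*Klf4*), and on chow from -0.0799858 to 0.30299 (*Cebpa*), -0.553298 to 0.100859 (*Klf15*), -0.284835 to 0.255674 (*Ebf1*) and -0.551056 to 0.341684 (*Ebf2*). Interactions ran from -0.283979 to 0.277428 (*Pparg*), -0.387869 to 0.655102 (*Klf15*), -0.209267 to 0.366573 (*Ebf1*) and -0.190635 to 0.815665 (*Ebf2*).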
